A study of Brassica rapa with 12 samples.

Results

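A set of 103 genes was read almost only in dark-kept seedlings of both *Brassica rapa* lines studied, LP08 and Chiifu. They were picked from the 41018 features with an ID that starts with Bra, out of 42186 features in all. The rule used the mean of 3 libraries in CPM, a library's count for a gene per 1000000 counts of that library. A gene was taken if it reached at least 10 CPM in LP08 dark and in Chiifu dark, and if its light mean was at most 1/32, or 3.125%, of its dark mean in each line. The contrast of dark with light therefore chose the genes, and it is described below without a test. The line differences in dark and in light were not part of the rule, although it bounds them, since a gene read in the dark in 1 line alone cannot qualify.

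RNA came from whole seedlings at 1 week of age, in 3 libraries each of LP08 dark, Chiifu dark, LP08 light and Chiifu light. The stated regimes are 24 h dark for dark seedlings and 16 h light with an 8 h night for light seedlings. It is not stated whether the 24 h are per day over the whole week, at what hour plants were taken, or whether replicates were separate plants. P-values therefore set a line difference against the spread among these libraries, and that spread may be technical. Chiifu is a Chinese cabbage line. A vegetable and an oilseed type are named in the title of the series, without saying which line is which.

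In plants, darkness after germination leads to etiolated growth, with an elongated hypocotyl, closed cotyledons and no chlorophyll. In *Arabidopsis*, this state is kept by PIF transcription factors, which photoreceptors (phytochromes and cryptochromes) inactivate in light, while the factor HY5 accumulates and drives greening. Long darkness also starves tissue of sugar, and so-called dark-inducible genes of amino acid, lipid and protein breakdown are known from *Arabidopsis* leaves. The files do not pair IDs with names, and 0 of the 103 IDs were found in the RefSeq gene table, so the genes are given by ID and none could be assigned to these programmes. Gene lengths, positions and sequences were not used here, so CPM values of different genes compare reads and not transcripts, and reads shared between near-identical copies could not be looked for. In whole seedlings, fewer cells of a type and less RNA per cell cannot be told apart.

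The libraries held between 48773088 and 71764062 counts, so a gene with no read could still have up to 0.0615 CPM (3 counts) in the smallest. Mean correlations of log2 scaled CPM (plus 0.5) with the other libraries of the same group were lowest for Chiifu dark replicate 3 (0.971), Chiifu dark replicate 2 (0.978) and LP08 light replicate 3 (0.978). Every other library was at 0.984 or more.

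The 103 genes together took 2.64 ± 0.16% of all counts in LP08 dark and 3.04 ± 0.063% in Chiifu dark, against 0.0312 ± 0.0094% in LP08 light and 0.0359 ± 0.0088% in Chiifu light (SD, n = 3 each). No gene had a dark and a light library of the same line that overlapped in CPM. The mirrored rule, with light and dark exchanged, was met by 89 Bra IDs. No feature with an ENSRNA ID, the prefix Ensembl gives to non-coding RNA genes, met the dark-only thresholds. Few could have done so in these mRNA libraries. Of any ID, 12200 tested features had at least 10 CPM in both dark groups, beside 12170 Bra IDs at that level.

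**Figure D1:**
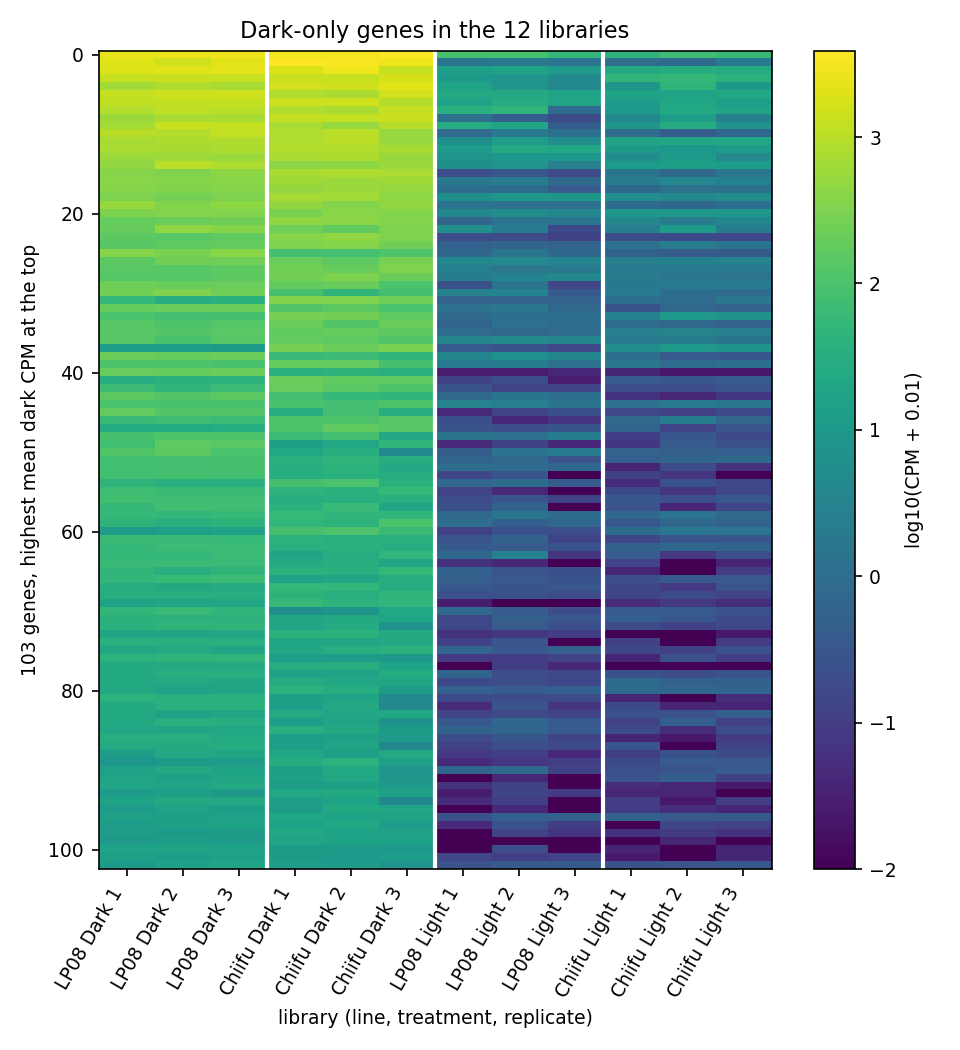
Level of each of the 103 genes (rows, highest mean dark CPM at the top) in each of the 12 libraries (columns), as log10 of CPM plus 0.01. The 6 dark libraries stand apart from the 6 light libraries in every row, and LP08 light replicate 3 is low in several rows where the other 2 LP08 light libraries are not.

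Levels in the dark spanned more than 2 orders of magnitude. Group means ran from 10.5 to 2663 CPM with a median of 64.1 in LP08, and from 10.6 to 3420 CPM (3419.8) with a median of 48.1 in Chiifu. In LP08, 17 genes were under 20 CPM, 57 were from 20 to under 200 CPM and 29 were at 200 CPM or more. The counts in Chiifu were 23, 49 and 31. The reads were concentrated in few genes, since the 10 highest of each line held 55.1% of the genes' summed CPM in LP08 dark and 56.8% in Chiifu dark. In each line 10 of the 103 were among the 100 most abundant features of the dark transcriptome, with a best rank of 13 in LP08 and 6 in Chiifu. The order of the genes by level was similar in the lines, with a Spearman rho of 0.81 across the 103 genes, which share the same libraries and are not independent replicates.

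The 2 genes with the highest dark levels differed in how far they fell in light. Bra007333 had 2550.2, 2705 and 2732 CPM in LP08 dark and 3035, 3020.1 and 3722 CPM in Chiifu dark. It had 92.2, 90.1 and 49.6 CPM in LP08 light, against 44.1, 72.5 and 56.7 CPM in Chiifu light. Its light level was thus 2.90% of the dark level in LP08 and 1.77% in Chiifu, and it remained the member with the most light reads in both lines. Bra031301 had 2108, 1508 and 2196 CPM in LP08 dark and 3880.3, 3431 and 2949 CPM in Chiifu dark. It had 1.51, 1.83 and 1.34 CPM in LP08 light, against 1.05, 0.814 and 1.87 CPM in Chiifu light, which was 0.0805% and 0.0363% of the dark levels. Both genes were far apart between dark and light in every library, and the share left in light was smaller for Bra031301 in both lines.

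Replicates were closer to each other in LP08 dark than in Chiifu dark. The median coefficient of variation (SD over mean of 3 libraries) of the 103 genes was 10.4% in LP08 dark and 21.6% in Chiifu dark. For all 12170 Bra IDs with at least 10 CPM in both dark groups the medians were 8.75% and 16.3%, so the difference between the lines was seen over this wider set as well. The steadiest genes were Bra035680, with 77.8, 73.0 and 74.98 CPM in LP08 dark and 31.1, 31.1 and 34.5 CPM in Chiifu dark, and Bra031421, with 17.7, 17.6 and 17.7 CPM in LP08 dark and 11.1, 11.1 and 9.50 CPM in Chiifu dark. Among the most variable was Bra013749, with 79.9, 158.4 and 144.6 CPM in LP08 dark and 14.6, 21.9 and 46.9 CPM in Chiifu dark.

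In Chiifu dark, replicate 3 was most often far below the others. It was at 0.5 times or less of the mean of the other 2 libraries for 13 of the 103 genes (12.6%) and at least double for 5 (4.85%), on the scaled totals of the fit. Over the 12170 IDs the same library was as low for 4.396% and as high for 3.43%. Chiifu dark replicate 1 was as low for 4 of the 103 genes and replicate 2 for 1. The 13 genes had Chiifu dark means of 11.4 to 74.7 CPM. What sets this library apart was not tested. The total counts of calls in dark are given below with and without it. Counts by fold and by abundance are given only with it.

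**Figure D2:**
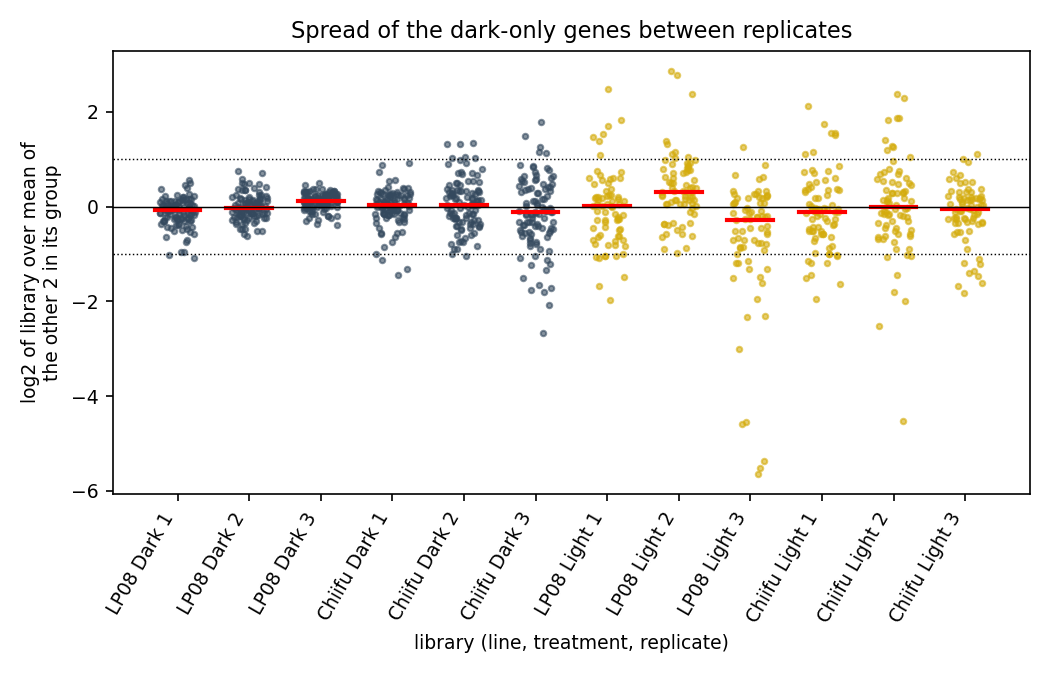
Each point is 1 of the 103 genes in 1 library, as the log2 ratio of its scaled level to the mean of the other 2 libraries of its group, with 0.01 CPM added. Red bars are medians and dotted lines mark 0.5 times and double, and light libraries show only genes with over 30 reads in the group (73 in LP08, 76 in Chiifu). Medians lie near 0 in dark, while Chiifu dark replicate 3 and LP08 light replicate 3 have tails of genes far below. Other light libraries, such as LP08 light replicate 1 and Chiifu light replicate 1, also have genes at 0.5 times or less.

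How completely reads disappeared in light varied widely among the genes. The light mean was a median 0.692% of the dark mean in LP08 and 0.813% in Chiifu. It was under 1% for 65 genes in LP08, for 61 in Chiifu and for 47 in both. In the line where the fall was smaller, dark over light was 32-fold to under 64-fold for 40 genes, 64-fold to under 256-fold for 43, 256-fold to under 1024-fold for 18 and at least 1024-fold for 2, with a light count of 0 over a group set to its floor of 3 counts. Those 2 genes, named for this extreme after their values were seen, were Bra004739 and Bra031301. Bra004739 had 29611 reads in LP08 dark and 6441 in Chiifu dark, against 4 reads in LP08 light and 4 in Chiifu light, each over 3 libraries. Bra024943, also named after its values were seen, had no read in LP08 light, where its dark mean of 12.03 ± 1.08 CPM (SD, n = 3) was at least 714-fold higher than the floor of 3 counts over the group. It had 2842 reads in Chiifu dark and 2 in Chiifu light.

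No gene was without reads in all 6 light libraries, and 82 of the 103 had at least 1 read in each of the 6. Bra027681 had no read in Chiifu light and was at 25.6 ± 7.18 CPM in Chiifu dark (SD, n = 3), at least 1790-fold above the same floor (1790.1). In LP08 it had 4004 reads in dark and 8 in light. The median gene had 83 reads over the 3 LP08 light libraries and 74 over the 3 Chiifu light libraries, and the light reads sat in few genes: the 5 genes with the most held 53.8% of them in LP08 and 47.8% in Chiifu. The share left in light was higher in LP08 than in Chiifu for 50 genes. Among the 101 genes with light reads in both lines, it differed by at least 4-fold for 18, of which 9 had the larger share in LP08 and 9 in Chiifu. Across genes, the shares of the lines had a Spearman rho of 0.54.

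**Figure D3:**
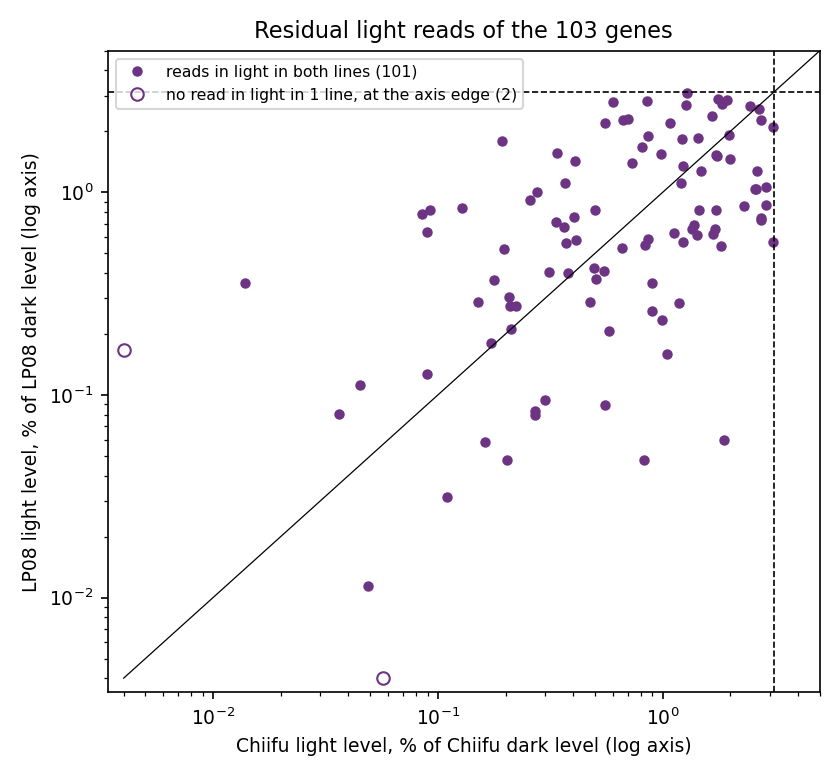
Light mean as a percentage of the dark mean of the same line for each of the 103 genes, LP08 on the vertical and Chiifu on the horizontal axis, both logarithmic. Dashed lines mark the 3.125% of the rule and the diagonal marks equal shares. Genes scatter on both sides of the diagonal (50 above it), and the 2 open circles are genes with no read in light in 1 line, drawn at the axis edge.

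The threshold cut through a continuous range. Just inside it were Bra039554, whose light level was 3.11% of dark in LP08 and 1.28% in Chiifu, and Bra031672, at 2.098% in LP08 and 3.09% in Chiifu. Just outside it were Bra037240, at 3.14% in LP08 and 1.31% in Chiifu, and Bra001843, at 0.00716% in LP08 and 3.17% in Chiifu. Bra001843 had 18515 ± 3299 CPM in LP08 dark and 1131 ± 347 CPM in Chiifu dark (SD, n = 3). At the other threshold, Bra023460 (10.5 CPM in LP08 dark) and Bra031421 (10.6 CPM in Chiifu dark) were just inside, and Bra023085 (9.48 CPM in LP08 dark, 9.49 in Chiifu dark) and Bra001632 (8.98 CPM in LP08 dark, 11.7 in Chiifu dark) just outside. Among Bra IDs with at least 10 CPM in both dark groups, 159 met the light threshold in LP08 and 136 in Chiifu, so the 103 were 64.8% of the LP08 list and 75.7% of the Chiifu list. For the 56 that met it in LP08 alone, the light share in Chiifu had a median of 7.14%, and 24 of them were within 6.25%. For the 33 that met it in Chiifu alone, the median share in LP08 was 8.14%, and 13 were within 6.25%. With totals scaled by edgeR's TMM method (trimmed mean of log ratios) in place of raw totals, 94 genes met the rule.

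Line differences in the dark were tested for all 31239 features that passed a filter on low counts, which all 103 genes did, with edgeR's quasi-likelihood test and Benjamini-Hochberg adjustment over all of them. Of the 103 genes, 28 were higher and 19 lower in LP08 dark than in Chiifu dark at an adjusted p under 0.05, together 45.6%. The background was 25.4% higher and 27.9% lower over all tested features (53.3% in all), and 25.8% higher and 22.1% lower (47.9% in all) over the 12200 tested features with at least 10 CPM in both dark groups. The share of genes called was thus near the background in this fit. The fit shares a gene's dispersion between dark and light libraries, so spread in light enters the test in dark. With the dark libraries fitted alone, 28 genes were higher and 28 lower in LP08 dark. Over all tested features 6283 were then higher and 7383 lower, against 7945 and 8712 in the main fit. What changes these counts was not tested. The balance of directions turned when library totals replaced TMM, to 23 genes above and 24 below. Replicates of the lines did not overlap for 37 genes higher and 27 lower in LP08 dark, beside 29% and 28.7% of all tested features and 29.8% and 23.1% of the 12200. The median log2 fold change (LP08 over Chiifu) was 0.10 over the 103 genes, 0.00 over all tested features and 0.05 over those with at least 10 CPM in both dark groups.

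The size of the differences was above that of other genes read at 10 CPM or more. At a fold of 2 or more, 21 of the 103 genes were higher in LP08 dark and 10 lower, or 20.4% and 9.71% (30.1% in all). The background was 6.58% and 6.26% over the 12200 features (12.8% in all), and 14.6% and 17.1% over all tested features (31.7% in all). The median absolute log2 fold change was 0.76 over the 103 genes, 0.39 over the 12200 features and 0.66 over all tested features. These backgrounds were not matched for spread among dark replicates. The median coefficient of variation was larger for the 103 genes than for Bra IDs with at least 10 CPM in both dark groups. It was 10.4% against 8.75% in LP08 dark and 21.6% against 16.3% in Chiifu dark. Whether the folds go beyond those of genes with like spread was not tested. The directions were also counted by abundance. Of the 42 genes with a mean under 50 CPM over both dark groups, 14 were higher and 4 lower in LP08, beside 23.8% higher and 22.3% lower over 7839 tested features in this range. Of the 33 from 50 to under 200 CPM, 13 were higher and 8 lower, beside 29.7% and 22.1% over 3639 features. Of the 28 at 200 CPM or more, 1 was higher and 7 lower, beside 28.0% higher and 20.1% lower over 722 tested features in this range. These splits were not tested as a difference. The counts by fold and by abundance include Chiifu dark replicate 3 and are not given without it. That library was low for 13 genes with Chiifu dark means of 11.4 to 74.7 CPM, of which 6 were called higher in LP08 dark.

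**Figure D4:**
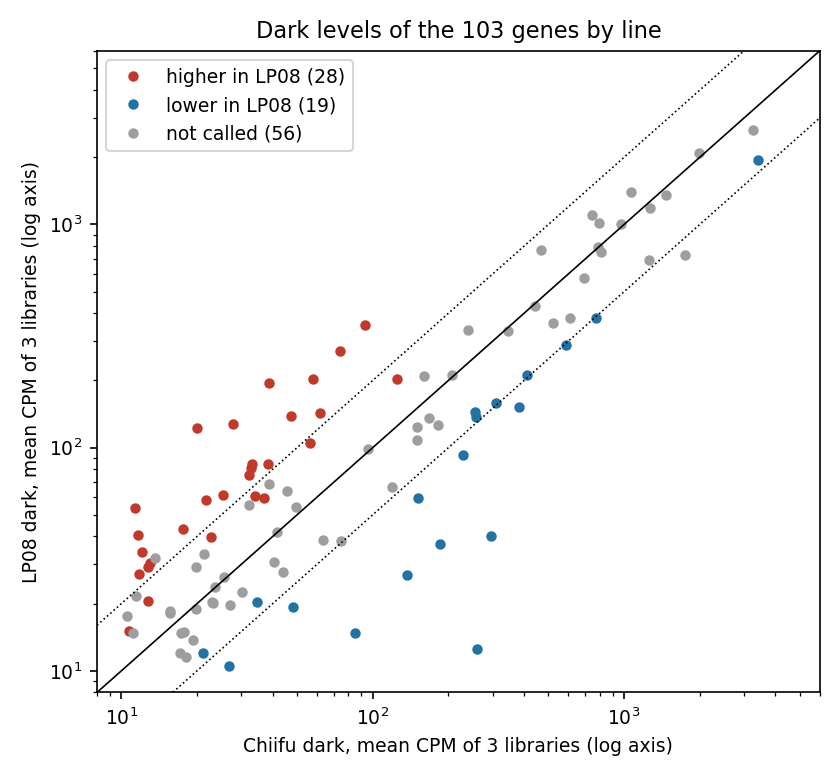
Mean dark CPM of the 103 genes in LP08 (vertical) and Chiifu (horizontal), both on log axes, coloured by the edgeR call of LP08 against Chiifu in dark. The solid line marks equal levels and dotted lines 2-fold differences. The 28 genes higher in LP08 lie mostly at low to middle levels, and the gene farthest below the line is Bra031672.

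Among genes called with replicates that did not overlap, Bra009032 and Bra004739 had the largest excess in LP08 dark. Bra004739 had 194.4, 182.9 and 205.2 CPM in LP08 dark and 36.8, 42.8 and 36.1 CPM in Chiifu dark. Every LP08 library was far above every Chiifu library, with a log2 fold change of 2.42 (SE 0.12, edgeR adjusted p = 2.29e-08), or 5.35-fold. Bra009032 had 115.2, 151.9 and 99.3 CPM in LP08 dark and 22.3, 33.6 and 4.002 CPM in Chiifu dark. The groups did not overlap, but Chiifu dark replicate 3 was well under the other 2. The log2 fold change was 2.73 (SE 0.63, edgeR adjusted p = 0.0039) and 2.26 without that library (adjusted p = 0.00286).

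Bra031672 had the largest deficit, with 12.8, 13.6 and 11.2 CPM in LP08 dark and 273.9, 218.5 and 290.03 CPM in Chiifu dark. The log2 fold change was -4.31 (SE 0.24, edgeR adjusted p = 5.16e-08), so the gene was 19.8-fold lower in LP08. Bra027534 had 51.8, 29.6 and 39.0 CPM in LP08 dark and 337, 318.5 and 228 CPM in Chiifu dark, and was 6.89-fold lower in LP08 (log2 fold change -2.78, SE 0.23, adjusted p = 1.31e-06). Of the 2 most abundant genes, Bra031301 was lower in LP08 dark with a log2 fold change of -0.73 (SE 0.26, edgeR adjusted p = 0.0307). That call was lost without Chiifu dark replicate 1 (-0.65, adjusted p = 0.0909) or LP08 dark replicate 2 (-0.58, adjusted p = 0.114). Bra007333 was not called, at -0.21 (SE 0.23, adjusted p = 0.456).

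Of the 47 calls in the dark, 35 held in all 21 alternative fits, 19 of them higher and 16 lower in LP08, and no gene called changed sign in any. Without Chiifu dark replicate 3, 43 of the 47 were still called and 8 further genes were, giving 28 higher and 23 lower. Of the 13 genes that were low in that library, 6 were called higher and 0 lower in LP08 with it, and 4 higher and 2 lower without it. Their median log2 fold change was 1.04 with it and 0.66 without it.

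The reads left in light differed between the lines about as often as those in the dark. At an adjusted p under 0.05, 25 of the 103 genes were higher and 24 lower in LP08 light than in Chiifu light, or 24.3% and 23.3% (47.6% in all). The background was 21.4% higher and 25% lower over all tested features (46.4% in all), and 23.5% and 17% over the 12200 (40.5% in all). At a fold of 2 or more, 22 genes were higher in LP08 light (21.4%) and 19 lower (18.4%), or 39.8% in all. The background was 9.92% and 16.5% over all tested features (26.5% in all), and 4.11% and 5.55% over the 12200 (9.66% in all). Replicates did not overlap for 22 genes higher and 24 lower in LP08 light, beside 31.3% and 33.3% of all tested features and 37.7% and 25.2% of the 12200. The median log2 fold change was 0.38 over the 103 genes, -0.02 over all tested features and 0.09 over the 12200. The median absolute value was 1.01, 0.55 and 0.34. The rule keeps these genes low in light, with a median of 0.46 CPM in LP08 light and 0.35 CPM in Chiifu light. Neither background was matched for light level. Whether the larger folds go beyond those of other genes with as few light reads was not tested. With library totals in place of TMM, the median of all tested features in light moved to -0.19. The counts over the genes were then 19 higher and 24 lower.

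Bra004429 had the largest excess in LP08 light among called genes with replicates apart, with 42, 91 and 68 reads in LP08 light and 4, 2 and 5 reads in Chiifu light, or 1.12 ± 0.36 and 0.0522 ± 0.022 CPM (SD, n = 3). The log2 fold change was 4.54 (SE 0.41, edgeR adjusted p = 3.25e-06). In the dark the same gene was at 142 ± 17.8 CPM in LP08 and 61.4 ± 20.7 CPM in Chiifu (SD, n = 3), a log2 fold change of 1.30 (adjusted p = 0.000645). Bra011170 rested on fewer reads, with 13 in LP08 light and 1 in Chiifu light, a 15.3-fold ratio with a 95% counting interval of 2.302 to 651 (exact binomial, counting error only), and an edgeR adjusted p = 0.000997. Bra031672 was lower in LP08 light as in the dark, with 20, 17 and 9 reads in LP08 light and 431, 701 and 554 reads in Chiifu light (log2 fold change -4.77, SE 0.28, edgeR adjusted p = 9.26e-08). Bra024102 had 0, 2 and 0 reads in LP08 light and 19, 34 and 8 reads in Chiifu light. Its ratio, Chiifu over LP08, was 25.9 with a 95% counting interval of 6.86 to 218 (edgeR adjusted p = 0.00236), while its dark levels, 18.2 ± 2.64 CPM in LP08 and 15.6 ± 6.25 CPM in Chiifu (SD, n = 3), were not called as different (adjusted p = 0.454).

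Set side by side, 8 genes were called higher in LP08 both in dark and in light and 10 were called lower in both. In contrast, 4 were lower in dark and higher in light, and 1 was higher in dark and lower in light. A further 24 genes were called in dark alone, 26 in light alone and 30 in neither. Over all tested features, 11.6% were called higher in both and 14.8% lower in both, 1.92% lower in dark and higher in light, and 1.9% higher in dark and lower in light. Calls in dark alone were 23.3% of the 103 genes and 23.1% of all tested features, calls in light alone 25.2% and 16.2%, and calls in neither 29.1% and 30.5%. Over the 12200 features, 25.2% were called in dark alone, 17.8% in light alone and 34.3% in neither, with 10.5% higher in both and 8.27% lower in both. None of these shares was tested against another. The comparison in dark and that in light use different libraries, with 1 fit and 1 dispersion per gene for both. Because the rule caps light relative to dark in each line, the line difference in light is not free of that in dark.

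**Figure D5:**
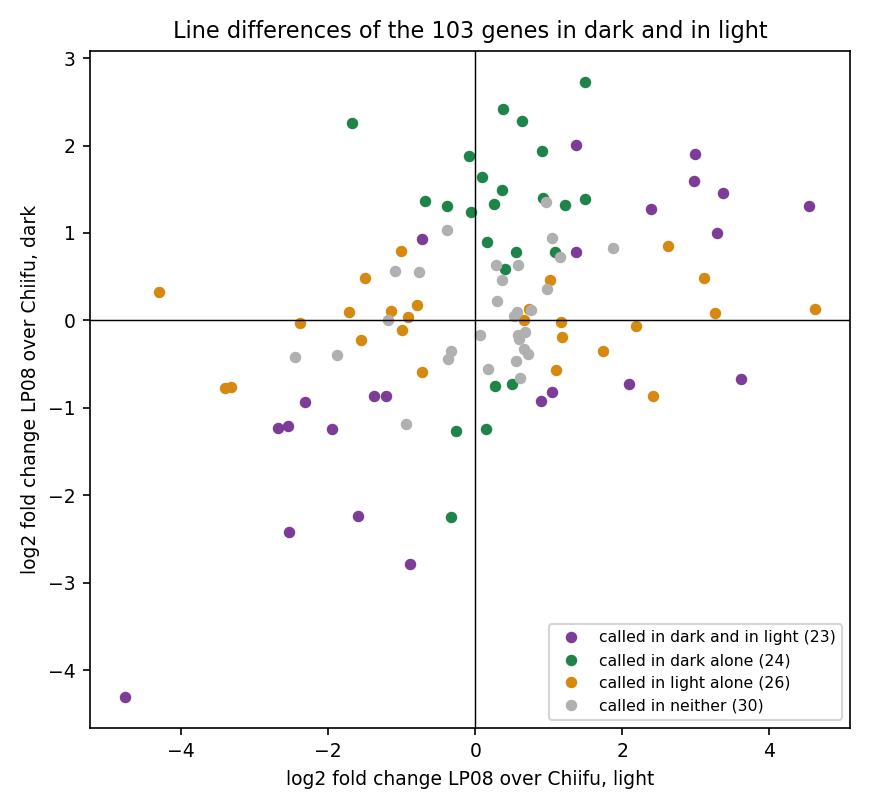
Fitted log2 fold change of LP08 over Chiifu for the 103 genes in dark (vertical) and in light (horizontal), coloured by whether the gene was called in dark, in light, in both or in neither. Bra031672 lies at the lower left in both (-4.31 in dark and -4.77 in light), and genes called in 1 treatment alone (24 in dark, 26 in light) lie in all parts of the plot.

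Light libraries of 1 group also differed from each other in these genes. Taking genes with over 30 reads in the group, LP08 light replicate 3 was at 0.5 times or less of the mean of the other 2 libraries for 17 of 73 genes (23.3%), beside 6.20% of 27916 Bra IDs with as many reads. Chiifu light replicate 2 was at least double the other 2 for 10 of 76 genes (13.2%), beside 2.12% of 29188 Bra IDs. The lists had 4 genes in common, 23.5% of the first and 40.0% of the second, with no background share for this overlap. Other light libraries also strayed more often than this background. LP08 light replicate 1 was at 0.5 times or less for 9 of 73 genes (12.3%, beside 1.44%). Chiifu light replicate 1 was as low for 11 of 76 (14.5%, beside 3.33%) and replicate 3 for 9 (11.8%, beside 1.63%). LP08 light replicate 2 was at least double for 9 of 73 (12.3%, beside 2.09%) and as low for 0. The background was not matched for read counts above 30. Among the 5 genes at 0.1 times or less in LP08 light replicate 3, Bra014510 and Bra020713, chosen after their values were seen, had the most reads. Bra014510 had 1571, 1181 and 27 reads in LP08 light and 594, 2023 and 483 reads in Chiifu light. Bra020713 had 1943, 2791 and 56 reads in LP08 light and 735, 1733 and 1265 reads in Chiifu light. In the dark no library was so far from its group: Bra014510 had 660.4, 1412 and 1219.9 CPM in LP08 dark, against 768, 538.5 and 930.1 CPM in Chiifu dark. Bra020713 had 881.7, 1123 and 1008 CPM in LP08 dark, against 878, 756 and 1272 CPM in Chiifu dark. Neither gene was called between the lines in dark or in light. Their standard errors in dark were large, at 0.94 for Bra014510 and 0.84 for Bra020713. The fit uses 1 dispersion per gene over dark and light libraries, so the spread in light enters these errors. A missing call in dark therefore says little about the lines for these genes. Without LP08 light replicate 3, 39 of the 49 calls in light held and 8 further genes were called.

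A single pair of the 103 genes carried consecutive ID numbers, Bra022956 and Bra022957, and was looked at for that reason after the values were seen. Both were high in dark and low in light, as the rule requires of all 103 genes, and no other pair was set beside them. Bra022956 was at 1191 ± 74.4 CPM in LP08 dark and 1271 ± 335 CPM in Chiifu dark, and Bra022957 at 576 ± 18.1 and 692 ± 134 CPM (SD, n = 3). Their light levels were 1.83% and 1.54% of dark in LP08, and 1.22% and 0.979% in Chiifu. Neither was called between the lines in the dark (edgeR adjusted p = 0.992 and 0.595). In light their log2 fold changes were close, at 0.66 for Bra022956 (edgeR adjusted p = 0.0370) and 0.58 for Bra022957 (adjusted p = 0.0875), and replicates of the lines overlapped for both. The Bra022956 call was lost in 6 of 21 alternative fits.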

How the data were processed

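Each of the 12 libraries has a deposited table of read counts, whole numbers with no normalization by the authors, over the same 42186 features. Per the labels' protocols, RNA was DNase-treated and made into stranded mRNA libraries. FastQC, TopHat2, featureCounts and edgeR appear in the submitters' processing notes, with no version. Genome build, annotation, strand setting and filters: not given in the sources used here.

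CPM values use each library's unscaled total. Line differences were fitted over all 12 libraries with edgeR 4.0.16 in R 4.3.3 (filterByExpr at a minimum count of 10 and total of 15, TMM, robust quasi-likelihood F-test, 1 mean per group), with Benjamini-Hochberg adjustment over 31239 features. A standard error is the one implied by the F statistic. Calls without overlap of replicates use the scaled totals. The fit was tested on simulated data with known changes. Every replicate pair differed by more than counting noise (chi-square per degree of freedom at least 13.7).

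The genes and the comparisons were chosen with earlier results of these data known. IDs were named by rule: at most 2 per description and direction, by level, fold, spread or nearness to a threshold. Gene lists of *Arabidopsis* symbols (dark-inducible, etiolation, growth, breakdown, seed and root genes) could not be joined to the IDs, and no list was tested.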

Additional observations from a re-analysis of the deposited data

Results flagged for a closer look

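For 5 of the 103 genes (4.85%) the line difference ran in opposite directions in dark and in light, with every LP08 library on one side of every Chiifu library in both treatments on the scaled totals of the fit. The same was seen for 6.97% of all tested features and 7.97% of those with at least 10 CPM in both dark groups, so the share was not above the background. The difference between dark and light was not tested, because it is made up of the dark-over-light ratios of the 2 lines, which chose the genes. Of the 5, 3 were lower in LP08 in dark and higher in light, and 2 were the reverse. One of the 2, Bra037739, was not called in dark (edgeR adjusted p = 0.400), where its unscaled CPM overlapped between the lines, at 194.7 to 223.9 in LP08 and 99.6 to 203.7 in Chiifu. Its call in light was lost in 16 of 21 alternative fits. Bra011170 was lower in dark and higher in light, with a log2 fold change (LP08 over Chiifu) of -0.67 in dark and 3.62 in light, where it had 13 reads in LP08 and 1 in Chiifu.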

How the results depend on the processing

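Counts of called genes stayed within 1.5 times under every alternative, both over the 103 genes and over all tested features. Leaving out 1 library at a time gave 22 to 31 genes higher and 16 to 24 lower in LP08 dark, and 19 to 29 higher and 18 to 23 lower in LP08 light. The number of genes that met the rule was 157 at 1/16, 63 at 1/64 and 66 when every library in place of the mean had to meet it, and 99 to 109 with 1 library left out. Calls were less stable in light, where 29 of 49 held in every alternative, than in dark (35 of 47). Bra024102 in light moved from -4.30 to -7.10 without LP08 light replicate 2, the only LP08 light library with reads of it. With library totals, 32.6% of called features were higher in LP08 light, against 46.0% with TMM. Replicate numbers were not taken as pairs in the main fit. Of 18 pairs of libraries with the same number, 9 had deviations correlated above 0.1. Of 36 matches with another group, 17 were best for the same number. No chance level was worked out, so these counts do not settle whether the numbers pair the samples. With the replicate block, 27 genes were higher and 19 lower in dark, and 25 and 23 in light. Light values rest on few reads, with at most 30 over 3 libraries for 30 genes in LP08 and 27 in Chiifu.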
